A study of Homo sapiens with 22 samples.

Results

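Among untreated WM989 melanoma cells that the deposited annotation calls drug-susceptible, 2 clusters held cells annotated as G2M and high in genes of mitosis, with some of the mitotic markers not raised in cluster 6. These were cluster 6, with 747 cells, and cluster 7, with 730 cells, as numbered in the cell metadata, and every cell of either number was taken. Together they were 1477 of the 12531 cells of the experiment, 15.2% of its 9688 drug-susceptible cells (95% exact binomial interval, counting error only, 14.5 to 16.0%), and 1477 of the 54001 cells of the 3 single-cell experiments. The other drug-susceptible cells, 8211 in number, were in clusters 0, 1, 3, 4, 5 and 10, and clusters 2, 8 and 9 held the cells annotated as primed for drug resistance.

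WM989 is a human melanoma cell line with a BRAF V600E mutation, and the line used here was grown from a single-cell clone, so the data describe 1 clone. Its cells carried a transcribed lineage barcode, a semi-random sequence in the 3′ end of a GFP transcript driven by the EFS promoter, and were expanded from a mixed sort or from a sort for EGFR and NGFR, with no drug. The 8 wells of the 10x Genomics 3′ assay were annotated as replicate r1 (wells 1 to 4) or r2 (wells 5 to 8). Wells of the same sort and replicate were loaded from the same culture, and the labels do not say which well held which sort. The spread between wells may therefore be technical or may follow the sort. A second WM989 experiment, of 8 libraries, held cells without treatment (Control), with the cytokine TGFB1, with an inhibitor of its receptor (TGFBRi) or with a PI3K inhibitor (PI3Ki), each as r1 and r2, and the 4 libraries of a replicate were split from 1 culture. The sample labels name these libraries Mix or Primed instead. How this maps to r1 and r2 is not settled, so r1 and r2 may differ in more than replicate. The remaining single-cell experiment was 1 library of another melanoma line, WM983B, without treatment.

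A cell that enters mitosis condenses its chromosomes with condensins and topoisomerase II, builds a spindle from kinesins and other microtubule proteins, and attaches the chromosomes at their kinetochores. The kinase CDK1 with cyclin B drives entry, and the anaphase-promoting complex, with its activator CDC20, ends mitosis by marking cyclin B and securin for degradation. EGR1 and EGR3 are zinc-finger transcription factors of the immediate early class, genes that are switched on within minutes of a growth signal through the ERK pathway. This pathway is driven by mutant BRAF in such melanoma cells.

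Promoters of 3 marker genes and of CENPA, chosen because they hold a match to an element these programmes are known for, are shown first. They do not stand for all markers, since the CCNB1 window held no CHR. CArG boxes bind serum response factor, which acts at immediate early genes. The cell cycle genes homology region (CHR, searched here as TTTGAA or TTCGAA on either strand) is bound by repressor and activator complexes at genes of G2 and mitosis. Capitals mark a CArG box in EGR1 and a CHR in the other genes, all read in the direction of the gene from RefSeq promoters on GRCh38.
EGR1, chr5:138465349-138465463, plus strand: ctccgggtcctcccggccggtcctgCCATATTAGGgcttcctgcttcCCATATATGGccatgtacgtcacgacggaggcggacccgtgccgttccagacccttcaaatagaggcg
PLK1, chr16:23678829-23678888, plus strand: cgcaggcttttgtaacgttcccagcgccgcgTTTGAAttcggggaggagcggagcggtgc
PIF1, chr15:64825648-64825707, minus strand: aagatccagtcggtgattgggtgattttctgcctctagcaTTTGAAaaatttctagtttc
CENPA, chr2:26785996-26786055, plus strand: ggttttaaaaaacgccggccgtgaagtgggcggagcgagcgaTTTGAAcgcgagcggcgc
The EGR1 stretch runs from 130 to 16 bases before the start, and its CArG boxes begin 105 and 83 bases before it. The CHR begins 29 bases before the start in PLK1, 20 in PIF1 and 18 in CENPA. A CHR match, on the other strand, also begins 29 bases before the EGR1 start and is left in lower case.

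A window of 250 bases before to 50 after each start was searched in 30 of the 36 genes of the late-mitotic list, a list of genes whose RNA is high in late G2 and mitosis. A CHR was present in 19 of these 30 (63.3%), against 15.7% of the 4776 genes with a window among those compared between the clusters and 19.5% of all 27305 genes with one. In the last 50 bases before the start, 11 of the 30 held a CHR (36.7%), against 3.06% of all genes. CCAAT or ATTGG, the letters bound by the factor NF-Y, was in 25 of the 30 (83.3%), against 44.7% of the compared genes and 39.7% of all genes. A CArG box was in none of the 30, in 3 of 32 immediate early genes (9.38%) and in 1.60% of all genes, and windows with 2 CArG boxes numbered 2 among the immediate early genes and 11 among all genes. Of the 8 genes named as higher in cluster 7 that had a window, 6 held a CHR and 8 held CCAAT. Of the 5 genes named as higher in cluster 6 that had a window, 1 held a CArG box and 1 a CHR, both EGR1, and 9 of the 32 immediate early genes held a CHR (28.1%). These matches describe letters in the window and not bound sites.

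ATAC-seq measures open chromatin, here in sorted WM989 cells and not in these clusters. Its libraries labelled Mix were used, but the study's methods name a population negative for EGFR and NGFR and none called mixed, so which cells these libraries held is not settled. A peak overlapped the window in all 3 libraries at 30 of 30 late-mitotic genes and 30 of 32 immediate early genes. The share was 98.6% for all genes compared between the clusters and 48.2% for all genes. The fold enrichment over local background at EGR1 was 97.2, 95.7 and 112.8 in the 3 libraries, at PLK1 36.3, 42.0 and 41.6, and at PIF1 75.7, 83.0 and 80.8. Since nearly all compared genes had such a peak, these counts set neither list apart.

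Cluster 6 made up 7.58% of drug-susceptible cells in r1 and 7.92% in r2, and cluster 7 made up 6.34% and 9.39%. By well, cluster 6 made up 16.5, 7.20, 8.27, 6.88, 3.61, 5.97, 7.42 and 8.88% in wells 1 to 8, and cluster 7 made up 5.15, 4.07, 6.64, 6.68, 3.61, 5.97, 9.12 and 10.3%. Cluster 6 had the larger share in wells 1 to 4 and cluster 7 in wells 7 and 8, while wells 1, 5 and 6 held 194, 83 and 134 drug-susceptible cells. The wells were not alike in primed cells. Wells 1, 2, 5 and 6 held 200, 783, 221 and 315 cells of primed cluster 2, and wells 3, 4, 7 and 8 held 9, 7, 25 and 28. Well 2 thus differed in this from wells 3, 4, 7 and 8. The phase annotated from expression was G2M in 745 of 747 cells of cluster 6 and in 730 of 730 of cluster 7, while 1440 cells of the other drug-susceptible clusters were also called G2M. The median depth was 43689 unique molecular identifiers (UMIs) per cell in cluster 6, 64334.5 in cluster 7 and 52473 in the other drug-susceptible clusters. In the 5 wells with at least 20 cells of both clusters (2, 3, 4, 7 and 8), the median depth of cluster 6 was 0.641 to 0.740 times that of cluster 7. Depth therefore moved with cluster, and levels below are UMI counts of the summed cells per 1000000 UMIs (CPM). A cell barcode was shared with another well by 38 of the 12531 cells, 3 of them in these clusters, and no doublet caller was run.

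The melanocyte lineage factor SOX10 was at 135 CPM in cluster 6, 145 CPM in cluster 7 and 128 CPM in the other drug-susceptible clusters. The 10 primed-state markers summed to 898 CPM in cluster 6 and 789 CPM in cluster 7, within the range of the other drug-susceptible clusters (286 to 1351 CPM) and below the 6123 CPM of primed cluster 2. Markers of other cell types stayed low. The 6 leukocyte markers summed to 1.63 CPM in cluster 6 and less in cluster 7, with 2 of them at 0 in both clusters. The 7 fibroblast markers summed to 43.0 and 35.0 CPM, nearly all of it LUM, and the 4 keratinocyte markers summed to 113 and 157 CPM, nearly all of it KRT10. Both lie in or near the range of the other drug-susceptible clusters (16.9 to 41.5 CPM and 97.8 to 159 CPM).

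The 6 mitotic markers were chosen with earlier results of these data known, so their levels describe the label of mitotic cells and do not test it. In this description the label held for cluster 7, where all 6 were more than 2-fold above the other drug-susceptible clusters, and in part for cluster 6, where 3 were. In cluster 6, CCNB1 was 8.17-fold, CDC20 5.65-fold and PLK1 5.86-fold above them, but the ratio was 1.26 for TOP2A, 1.70 for FAM83D and 0.813 for PIF1. Of the late-mitotic list, 32 genes in cluster 6 and 35 in cluster 7 were more than 2-fold above the others. The median log2 ratio of the list to the others was 1.73 in cluster 6 and 2.28 in cluster 7, against 0.12 and 0.08 for all genes. The share of all genes past 2-fold was counted only for the 2 clusters together, as given below. Phase was annotated from the same expression values. Since clusters were drawn from the same expression values, differences between clusters in this experiment are a description, given without a test. Of 5831 genes at 20 CPM or more on either side, 112 (1.92%) were more than 2-fold higher in clusters 6 and 7 together than in the other drug-susceptible clusters, and 26 (0.446%) were more than 2-fold lower. All 36 genes of the late-mitotic list were among the 112, with a median 4.21-fold higher, against a median log2 ratio near 0 for all genes. The list was chosen with earlier results of these data known, so this count is a description. The largest ratios belonged to NEK2, a centrosome kinase (7.36-fold), CENPE, a kinetochore kinesin (6.95-fold), PLK1, a kinase of mitotic entry (6.82-fold), KIF20A, a kinesin of cytokinesis (6.81-fold), CCNB1, which encodes cyclin B1 (6.77-fold) and AURKA, a spindle pole kinase (6.24-fold). The other lists of mitotic genes were chosen in the same way. More than 2-fold higher were 31 of 32 kinesin and spindle genes and 15 of 17 cyclins and mitotic kinases. So were 14 of 22 kinetochore genes, 8 of 19 chromosome structure genes and 5 of 15 genes of the anaphase-promoting complex and separation. Some members of these lists and of the late-mitotic list, such as NEK2 and PIF1, reached 20 CPM only on the side of clusters 6 and 7. The counts are therefore a description of the genes that passed.

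Genes of DNA replication lay on the other side. None of 30 G1/S and replication genes was more than 2-fold higher in clusters 6 and 7, and 12 were more than 2-fold lower, against 1.92 and 0.446% of all genes. Of 8 replication-dependent histone genes at this level, 6 were more than 2-fold lower, among them HIST1H1D at 87.1 CPM in cluster 6, 58.8 CPM in cluster 7 and 196 CPM in the others. PCNA, the sliding clamp of DNA polymerase, was at 99.96, 75.1 and 170 CPM. In cluster 6 or 7, only 22 G1/S and replication genes and 6 histone genes reached 20 CPM. Some of the 30 and of the 8 thus passed only through the other clusters, so these counts are a description of the genes that passed.

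**Figure D1:**
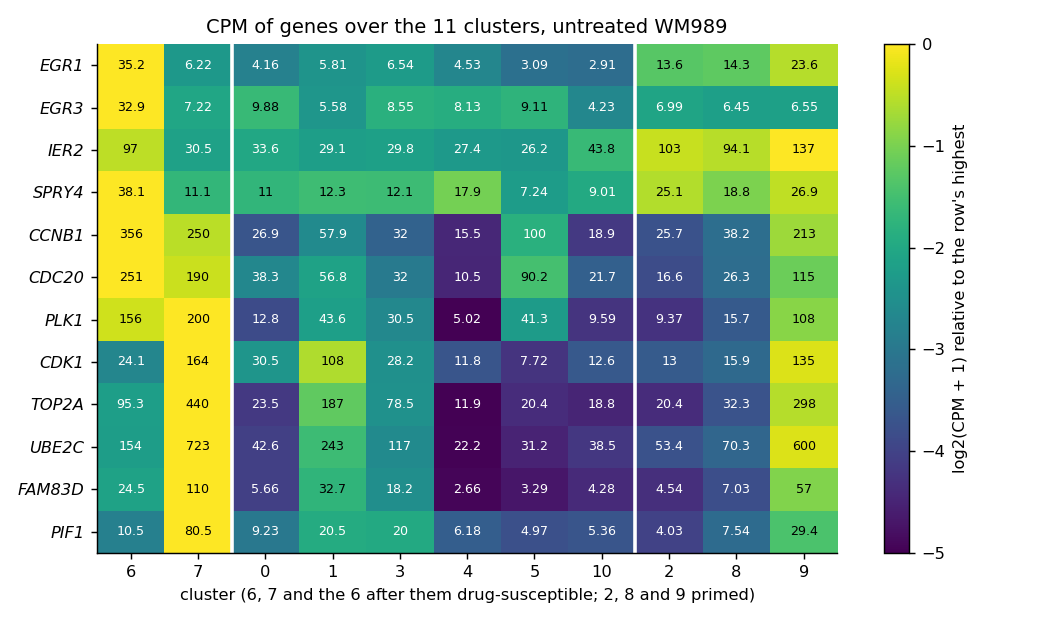
CPM of 12 genes (rows) in the 11 clusters of the untreated WM989 experiment (columns), with the value printed in each cell and colour giving log2(CPM + 1) relative to the highest cluster of the row. EGR1 was highest in cluster 6 at 35.2 CPM, and TOP2A, UBE2C and PIF1 were highest in cluster 7.

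The 2 clusters differed in both programmes, but not along a simple line from EGR genes to mitotic genes. EGR1, EGR3 and other immediate early genes were higher in cluster 6. CDK1, TOP2A, UBE2C, PIF1 and FAM83D were 4.49- to 7.66-fold higher in cluster 7, while CCNB1 and CDC20, marker genes of the same mitotic programme, were higher in cluster 6. Of 5905 genes at 20 CPM or more in either cluster, 27 (0.457%) were more than 2-fold higher in cluster 6 and 29 (0.491%) more than 2-fold higher in cluster 7, with a median log2 ratio of 0.02.

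EGR1 (chr5:138465479-138469303, plus strand) was at 21.2, 34.7, 38.6, 42.7 and 36.9 CPM in cluster 6 in wells 2, 3, 4, 7 and 8. In cluster 7 it was at 6.74, 6.49, 6.95, 6.55 and 5.22 CPM in the same wells, and in the other drug-susceptible clusters at 3.37 to 6.63 CPM. The lowest well of cluster 6 was above the highest of cluster 7, and cluster 7 overlapped the other clusters. Over all cells EGR1 was 5.65-fold higher in cluster 6 than in cluster 7 (4.98-fold in r1 and 6.70-fold in r2).

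EGR3 was at 20.2, 18.8, 23.1, 50.1 and 50.1 CPM in cluster 6 in these wells. It was at 3.14, 3.71, 4.03, 10.3 and 11.9 CPM in cluster 7. Levels of EGR3 were higher in r2 than in r1 in either cluster and in the others, and cluster 6 was above cluster 7 in 5 of 5 wells, 5.41-fold in r1, 4.68-fold in r2 and 4.55-fold over all cells.

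EGR1 was detected in a part of the cells of each cluster, and a cell without a UMI may still hold its RNA. A UMI of EGR1 was found in 43.0% of cluster 6 cells (95% exact binomial interval 39.4 to 46.6%). The tenth of cluster 6 cells with most EGR1 UMIs held 60.2% of them, against 70.2% in cluster 7 and 71.8% in the other drug-susceptible clusters. The share of cells with a UMI was 22.7% in cluster 7 and 17.9% in the other drug-susceptible clusters, at the median depths given above. After each cell was thinned to 10000 UMIs, the shares were 19.4% in cluster 6 (16.6 to 22.4%), 4.93% in cluster 7 (3.48 to 6.76%) and 4.17% in the others (3.74 to 4.62%). For EGR3 they were 22.0%, 6.30% and 7.36%. Among drug-susceptible cells, the shares were highest in cluster 6 with and without thinning, and those of cluster 7 were near those of the other clusters. Primed cluster 9, given below, had a higher share for EGR1 without thinning.

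The other genes with the largest ratios to cluster 6 were CITED2, a transcriptional co-regulator (20.7 against 4.23 CPM, 4.90-fold), IER3, an immediate early gene (717 against 182 CPM, 3.93-fold), MGP, which encodes matrix Gla protein (3.67-fold, 2.53-fold in r1 and 6.85-fold in r2), HIST1H2AC, a histone H2A gene (3.66-fold), SPRY4, a feedback inhibitor of receptor tyrosine kinase signalling (38.1 against 11.1 CPM, 3.42-fold), CREBRF, a regulator of CREB3 family factors (3.21-fold), IER2 (97.0 against 30.5 CPM, 3.18-fold) and KLF10, a zinc-finger factor (3.16-fold). They were chosen among genes higher in cluster 6 in every well. MGP varied most, with an SD of 1.52 over wells on the log2 scale, against 0.12 for IER3.

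The summed CPM of the 42 listed immediate early genes, with no filter on level, was 2733 in cluster 6 and 1405 in cluster 7, where single wells ran from 2525 to 2971 and from 1280 to 1455. The other drug-susceptible clusters ran from 1334 to 2288 CPM, so cluster 7 was within their range and cluster 6 above it. Primed cluster 2, at 3520 CPM, was higher still. Of the 42, 23 reached 20 CPM in either cluster, and some, such as EGR1 and EGR3, did so only in cluster 6, so the counts that follow are a description of those that passed. Among the 23, 8 were more than 2-fold higher in cluster 6 and none in cluster 7, against 0.457 and 0.491% of all genes. At any ratio, 18 were higher in cluster 6 and 5 in cluster 7. In every well, 17 were higher in cluster 6 and 2 in cluster 7, as were 1694 and 1165 of all 5905 genes.

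Targets and feedback genes of the ERK pathway were 3 of 13 more than 2-fold higher in cluster 6, against 0.457% of all genes, and none in cluster 7. SPRY4 and SPRY1 reached 20 CPM only in cluster 6, so this count too is a description. The 3 included SPRY1 (44.9 against 18.3 CPM, 2.45-fold) and DUSP6, a phosphatase that removes phosphate from ERK (145 against 68.2 CPM, 2.13-fold). CCND1, which encodes cyclin D1, was 1.62-fold higher in cluster 6, at 585 against 362 CPM, and at 443 CPM in the other clusters. Of 15 genes of G1 entry and CDK inhibition, 1 was more than 2-fold higher in cluster 6 and 0 in cluster 7, against 0.457 and 0.491% of all genes. This was CDKN2B, an inhibitor of CDK4 and CDK6 (25.5 against 8.64 CPM, 2.95-fold), which reached 20 CPM only in cluster 6.

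**Figure D2:**
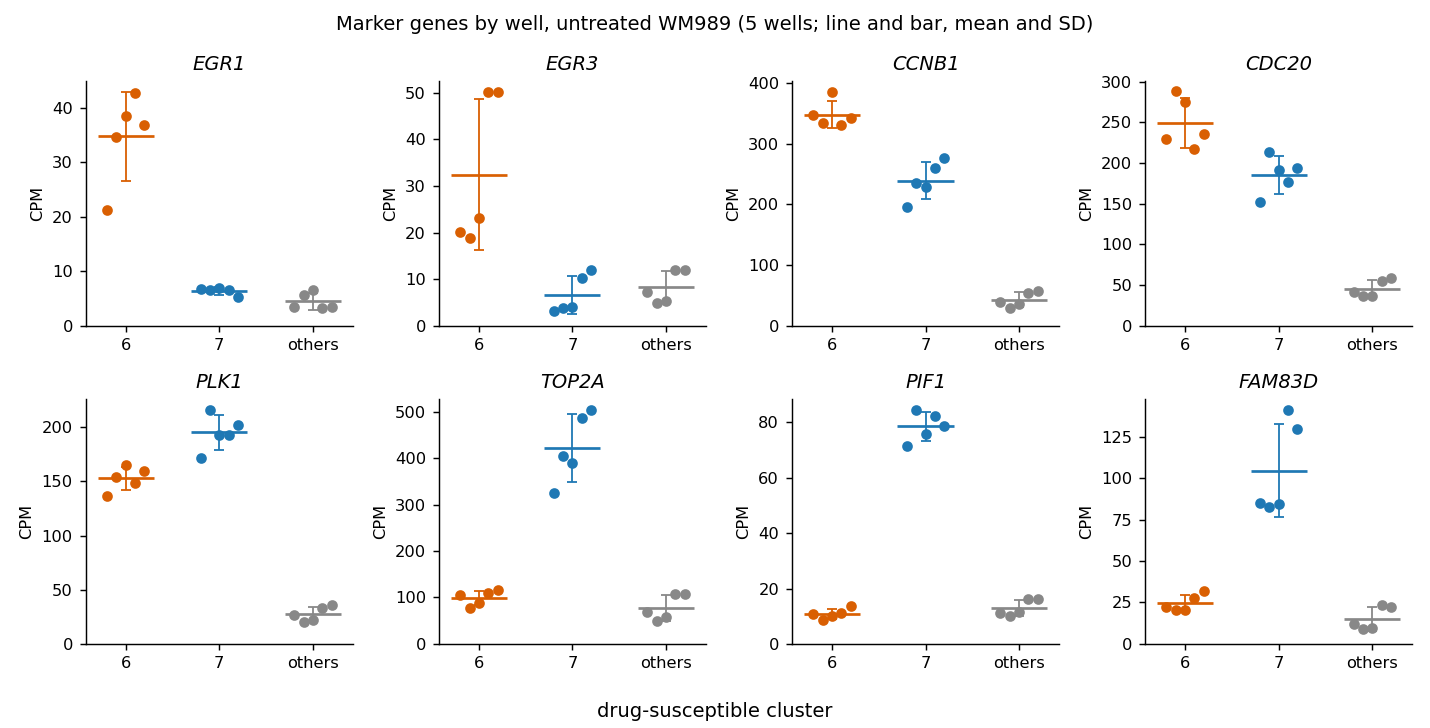
CPM of 8 marker genes in clusters 6 and 7 and the other drug-susceptible clusters, 1 point for each of the 5 wells with at least 20 cells of both clusters, with mean (line) and SD (bar). EGR1, EGR3, CCNB1 and CDC20 were higher in cluster 6 in 5 of 5 wells, and PLK1, TOP2A, PIF1 and FAM83D were higher in cluster 7 in 5 of 5 wells.

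TOP2A, topoisomerase II alpha, was at 325, 405, 390, 488 and 505 CPM in cluster 7 in wells 2, 3, 4, 7 and 8, and at 105, 78.2, 88.9, 109 and 115 CPM in cluster 6. In the other drug-susceptible clusters it was at 49.6 to 108 CPM, so that cluster 6 overlapped them and cluster 7 did not. TOP2A was 4.61-fold higher in cluster 7 over all cells.

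PIF1, a DNA helicase, showed the largest ratio to cluster 7, 7.66-fold, with 71.4, 84.6, 76.0, 82.4 and 78.8 CPM in cluster 7 against 10.9, 8.80, 9.97, 11.2 and 13.7 CPM in cluster 6. At 12.9 CPM in the other clusters over all cells, PIF1 was not elevated in cluster 6. CDK1 was 6.77-fold higher in cluster 7, at 164 against 24.1 CPM, and lower in cluster 6 than in the other drug-susceptible clusters (45.6 CPM). FBXO5, an inhibitor of the anaphase-promoting complex, was likewise at 34.0 CPM in cluster 7, 7.59 CPM in cluster 6 and 28.4 CPM in the others. UBE2C, the ubiquitin-conjugating enzyme of that complex, was at 723, 154 and 106 CPM (4.69-fold higher in cluster 7 than in 6).

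FAM83D, a spindle protein, was at 110 CPM in cluster 7 against 24.5 CPM in cluster 6 (4.49-fold), FAM110A, a centrosome protein, 4.49-fold higher, CCNF, which encodes cyclin F, 3.87-fold, C21orf58 3.38-fold and HJURP, the chaperone of centromeric CENPA, 3.31-fold. Of 5 lists of mitotic genes, 4 of 18 cyclins and mitotic kinases, 3 of 15 genes of the anaphase-promoting complex and chromatid separation, 5 of 33 kinesins and spindle genes, 2 of 22 kinetochore genes and 2 of 19 chromosome structure genes were more than 2-fold higher in cluster 7, against 0.491% of all genes. Some of them, such as CCNF, FBXO5, BORA and FZR1, reached 20 CPM only in cluster 7, so these counts are a description of the genes that passed. None in these lists was more than 2-fold higher in cluster 6. AURKB, the kinase of the chromosomal passenger complex, was at 208 against 103 CPM (2.03-fold), CENPA at 196 against 106 CPM (1.85-fold) and MKI67 at 633 against 357 CPM (1.77-fold).

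Several genes of mitosis were about level or went the other way. CCNB1 (chr5:69167135-69178245, plus strand) was at 347, 334, 386, 331 and 343 CPM in cluster 6 and at 196, 235, 230, 260 and 276 CPM in cluster 7, so the wells of the clusters did not overlap. CDC20 was at 251 CPM in cluster 6 and 190 CPM in cluster 7 (1.32-fold higher in cluster 6), and MAD2L1, a spindle checkpoint protein, was 1.35-fold higher in cluster 6. Each of these 3 was higher in cluster 6 in 5 of 5 wells. NEK2 was at 55.8 and 54.7 CPM, higher in cluster 6 in 3 of 5 wells. PLK1 was 1.28-fold higher in cluster 7, in 5 of 5 wells.

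Over the late-mitotic list, 30 of 36 genes were higher in cluster 7 and 6 in cluster 6, against 2708 and 3197 of all 5905 genes, with 4 past 2-fold, all in cluster 7, and summed levels of 6189 CPM (cluster 6) and 8310 CPM (cluster 7). The other drug-susceptible clusters lay between 638 and 3163 CPM, below either. Of 22 genes of G1/S and replication, 0 were past 2-fold in either direction, near the 0.457 and 0.491% of all genes. Just inside the 2-fold limit were DDIT3 (2.04-fold to cluster 6) and LINC01918 (2.01-fold to cluster 7), and just outside it PMAIP1 (1.97-fold) and FAM111A (1.98-fold).

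**Figure D3:**
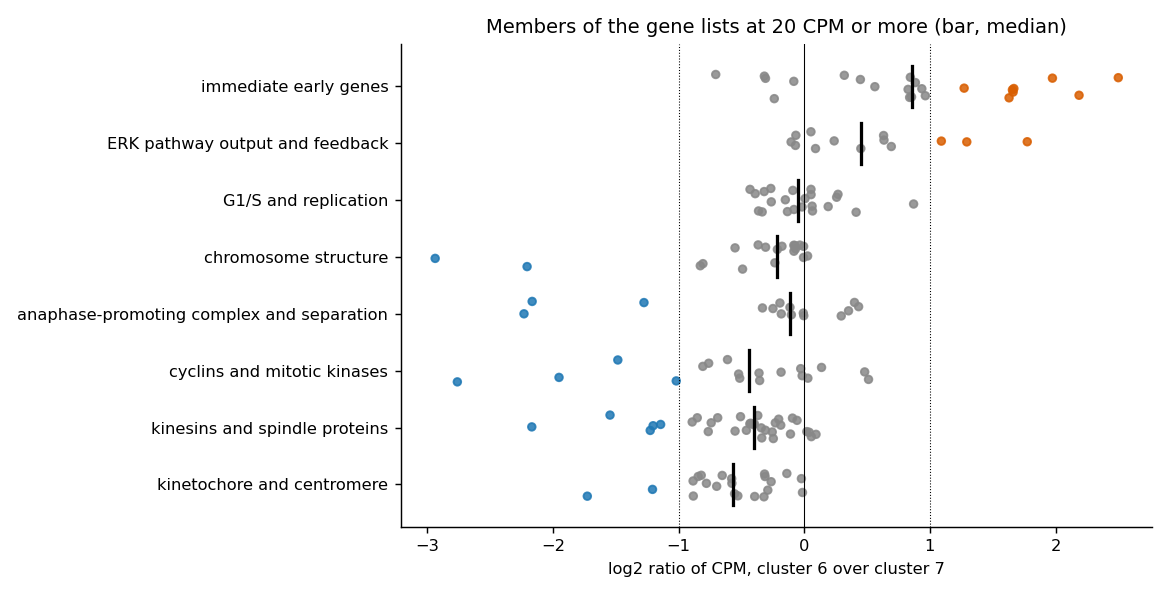
log2 ratio of CPM in cluster 6 over cluster 7 for each gene (point) of 8 lists at 20 CPM or more in either cluster, with the median of each list (bar) and dotted lines at a 2-fold ratio, past which points are orange (higher in cluster 6) or blue (higher in cluster 7). The median was 0.85 for 23 immediate early genes and -0.57 for 22 kinetochore and centromere genes.

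Per cell, the median summed CPM of immediate early genes was 2398 in cluster 6 (quartiles 1732 and 3404), 1312 in cluster 7 (1083 and 1613) and 1379 in the other drug-susceptible clusters (1097 and 1734). For the late-mitotic list it was 5996 in cluster 6, 8110 in cluster 7 and 1443 in the others. Primed cluster 9, which also held mitotic cells, had medians of 3053 and 5669 on these sums. Its EGR1 was at 23.6 CPM, against 35.2 CPM in cluster 6. Without thinning, EGR1 was found in 49.0% of cluster 9 cells (45.0 to 53.0%) and 43.0% of cluster 6 cells, at median depths of 72036 and 43689 UMIs. After thinning the shares were 17.7% (14.8 to 20.9%) and 19.4% (16.6 to 22.4%). EGR3 was at 6.55 CPM in cluster 9 and 32.9 CPM in cluster 6. It was found in 24.4% and 53.0% of their cells without thinning, and in 7.24% (5.33 to 9.56%) and 22.0% after it.

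**Figure D4:**
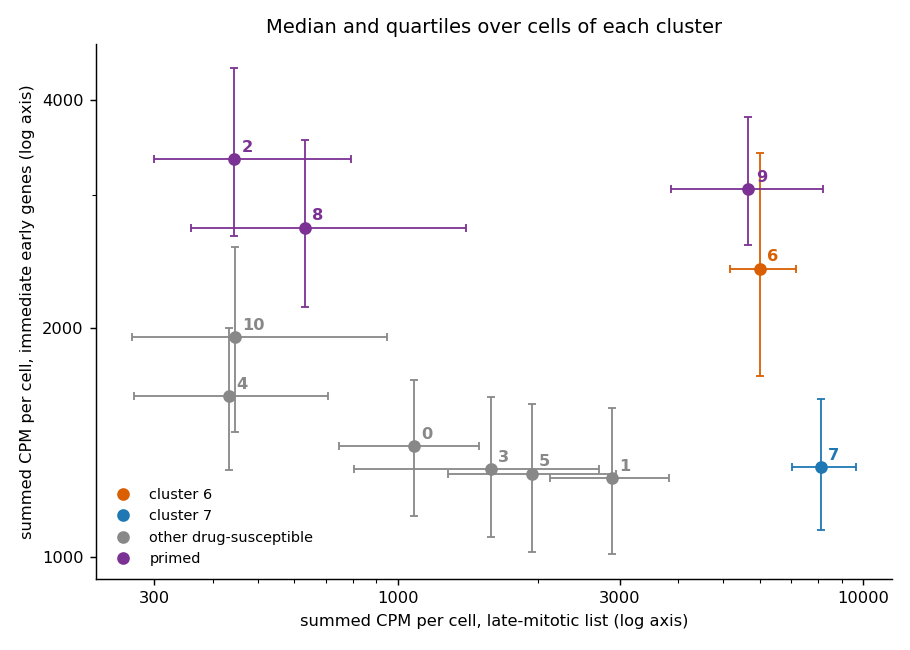
Summed CPM per cell of the late-mitotic list (x, log axis) and of the immediate early genes (y, log axis) in each of the 11 clusters, as the median (point) and quartiles (bars) over cells. Clusters 6 and 7 lie to the right of the other drug-susceptible clusters, and cluster 6 lies above cluster 7, with medians of 2398 and 1312 for immediate early genes.

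The lineage barcode, a readout that clustering did not use, was detected by any UMI in 93.2% of cluster 6 cells and 94.4% of cluster 7 cells. This count did not apply the stricter filters by which the paper assigned cells to lineages. Detection by any UMI may also move with depth, which was lower in cluster 6. By well, cluster 6 minus cluster 7 averaged -3.12 percentage points (SD 6.20, n = 5 wells), higher in cluster 6 in 2 of 5 wells (two-sided exact permutation test by sign, p = 0.375, where the smallest p possible is 0.0625, so the test could not pass 0.05). Without well 2, where the difference was -12.9 points, the mean was -0.681. With at least 2 lineage barcode UMIs asked of a cell, the mean over the 5 wells was -2.40. Some of the 5 wells share a culture, so they are fewer than 5 independent samples.

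Libraries on which clusters 6 and 7 had not been drawn gave a test. In the treatment experiment, the 10008 drug-susceptible cells called G2M were divided in each library at the median summed CPM of the late-mitotic list, and counts of the cells above (high) and below (low) were summed and compared by edgeR's quasi-likelihood test, with the library as a block and the 36 genes of the list removed. The low group was not a match for cluster 6. By the separate cluster numbers of that experiment, 46.2% of its cells were in cluster 1, and 38 of 38 genes of G1/S and replication and 20 of 20 replication-dependent histone genes were lower in the high group. Of 12720 genes, 2762 (21.7%) were higher in the high group and 2988 (23.5%) lower at an adjusted p under 0.05. The libraries of a replicate were split from 1 culture. Errors and p-values of these tests therefore describe spread between libraries and not between independent cultures.

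EGR1 was at 28.3, 41.9 and 52.8 CPM in the high group (lowest, median and highest of 8 libraries) and at 14.8, 21.2 and 28.6 CPM in the low group. It was higher in the high group in 8 of 8 libraries, by 0.91 ± 0.06 on the log2 scale (SE, edgeR adjusted p = 3.69e-20). EGR3 was higher by 0.62 ± 0.05 (edgeR adjusted p = 2.17e-15), IER2 by 0.69 ± 0.05 and SPRY4 by 0.69 ± 0.05, each in 8 of 8 libraries. Of 36 immediate early genes tested, 23 rose with the late-mitotic list and 6 fell, against 21.7 and 23.5% of all genes. Among G2M cells, those higher in late-mitotic genes thus had more EGR1, EGR3 and IER2 RNA. Genes named above together with TOP2A and CDK1, and not on the list, went both ways. TOP2A (0.83 ± 0.03), CDK1 (0.47 ± 0.03), FAM110A (1.28 ± 0.07) and CCNF (0.84 ± 0.04) were higher in the high group. FBXO5 (-0.38 ± 0.04) and C21orf58 (-0.58 ± 0.04) were lower in it, each in 8 of 8 libraries. Of the 10 genes named as higher in cluster 6, 8 were higher in the high group, and HIST1H2AC and MGP were lower. The calls of CITED2 (0.35 ± 0.10) and MGP (-0.32 ± 0.10, lower in 5 of 8 libraries) were lost with DESeq2, with thinned cells, in r1 alone and without the block. Their values stayed at 0.35 (CITED2) and -0.36 (MGP) without the block, and were 0.35 and -0.14 with DESeq2, 0.26 and -0.23 with thinned cells and 0.18 and -0.08 in r1 alone.

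At the ends of this comparison stood TNFAIP8L1 (1.55 ± 0.07), SOGA1 (1.32 ± 0.04), FAM110A (1.28 ± 0.07), KPNA2, an importin (1.22 ± 0.02) and KIF18A, a kinesin that limits chromosome movement (1.21 ± 0.04) among genes that rose. The 5 that fell most were histone genes, HIST1H1B (-1.74 ± 0.03), HIST1H2AH (-1.67 ± 0.04), HIST2H2AC (-1.66 ± 0.04), HIST1H1D (-1.57 ± 0.03) and HIST1H3D (-1.52 ± 0.03), all on the log2 scale with SE.

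A second split, chosen after these results were seen, came nearer to the contrast of the 2 clusters. The 5003 cells of the high group were divided again in each library, at the median summed CPM of the 10 genes named as higher in cluster 7 than in 6 (PIF1, CDK1, UBE2C, TOP2A, FAM83D, FAM110A, FBXO5, CCNF, C21orf58 and HJURP), and these genes were removed from the test as well. Cells low in these genes had a median depth 0.637 to 0.684 times that of cells high in them, the same direction as in cluster 6 against 7. By the clusters of that experiment, 18.7% of the high cells and 5.23% of the low cells were in cluster 1. Of 11446 genes, 2784 (24.3%) were higher in the cells low in cluster 7 genes and 2781 (24.3%) lower.

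EGR1 was at 45.8, 73.5 and 93.9 CPM (lowest, median and highest of 8 libraries) in the cells low in cluster 7 genes and at 15.0, 19.6 and 24.9 CPM in those high in them. The groups did not overlap. The log2 ratio of high to low was -1.86 ± 0.06 (SE, edgeR adjusted p = 1.44e-34), a 3.64-fold higher level in the low cells. EGR3 was at 31.6, 58.3 and 81.9 CPM against 9.01, 10.7 and 12.5 CPM (-2.40 ± 0.07, edgeR adjusted p = 7.97e-37), a 5.27-fold higher level.

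IER2 (-1.67 ± 0.05), SPRY4 (-1.60 ± 0.06), IER3 (-1.48 ± 0.04), CREBRF (-1.47 ± 0.08), KLF10 (-1.43 ± 0.09), CITED2 (-1.21 ± 0.13) and HIST1H2AC (-0.70 ± 0.08) were also higher in the low cells, and with EGR1 and EGR3 made 9 of the 10 genes named from cluster 6. The tenth, MGP, did not pass (0.21 ± 0.13, edgeR adjusted p = 0.175), with 4 libraries in each direction, but passed in r1 alone (0.51). The 9 had been chosen in other libraries, but the genes of the split were the opposite end of the same contrast between clusters. Their direction here therefore shows that this contrast recurred in the treatment libraries. The p-values of this split, those of EGR1 and EGR3 included, are not an independent test of it.

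Of 35 immediate early genes tested, 26 were higher in the low cells and 6 in the high cells, against 24.3% of all genes in each direction, with a median log2 ratio of -0.60, against 0.01 for all genes. Of 20 ERK pathway genes, 11 were higher in the low cells and 1 in the high cells (24.3% of all genes each way), DUSP6 among them (-1.28 ± 0.04) and SPRY1 (-0.88 ± 0.05). CCND1 did not pass in this split (-0.01 ± 0.04, edgeR adjusted p = 0.815), although it had been 1.62-fold higher in cluster 6. CDKN2B was higher in the low cells (-1.29 ± 0.08).

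Most mitotic genes outside the split that passed were higher in the high cells, where 24.3% of all genes were higher and 24.3% lower. The split itself sorted cells by genes of mitosis, so these counts are not independent of it and are a description. All 10 cyclins and mitotic kinases tested and all 15 kinetochore genes tested were higher in the high cells, as were 16 of 19 kinesin and spindle genes with none lower. In the list of the anaphase-promoting complex and separation, 6 of 12 were higher and 1 lower, with a median log2 ratio of 0.08. At the ends of the comparison, HYLS1, a centriole protein (1.501 ± 0.083), MTFR2 (1.48 ± 0.12), KPNA2 (1.43 ± 0.04), TICRR, a replication initiation factor (1.39 ± 0.11) and HIST1H1A (1.34 ± 0.09) rose most, and EGR3, EGR1, AL118516.1 (-1.77 ± 0.08), IER2 and SPRY4 fell most. Replication-dependent histones, 17 of 19, were also higher in the high cells. HIST1H1D was among them, in 8 of 8 libraries, although it was 1.48-fold higher in cluster 6 than in 7. CCNB1, used in the first split, was at a median of 428 CPM in the low cells and 400 CPM in the high cells, and CDC20 at 235 and 204 CPM, each higher in the low cells in 8 of 8 libraries.

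Depth was looked at directly. With cells thinned to 5000 UMIs before the second split, and those under that depth left out, the log2 ratio was -1.65 for EGR1 and -2.20 for EGR3. The cells that entered it were still those of the first split without thinning. Before thinning, the median depth of the low cells was 0.652 to 0.713 times that of the high cells, so the 2 sides still came from cells of unlike depth. In the 4 libraries of r1 alone EGR1 was at -1.91 and in those of r2 alone at -1.82. By treatment, the log2 ratio of EGR1 in single libraries was -2.22 and -2.08 in Control, -1.92 and -2.17 in PI3Ki, -1.94 and -1.78 in TGFBRi and -1.62 and -1.27 in TGFB1, the TGFB1 libraries lying nearest to 0. A difference between treatments was not tested.

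**Figure D5:**
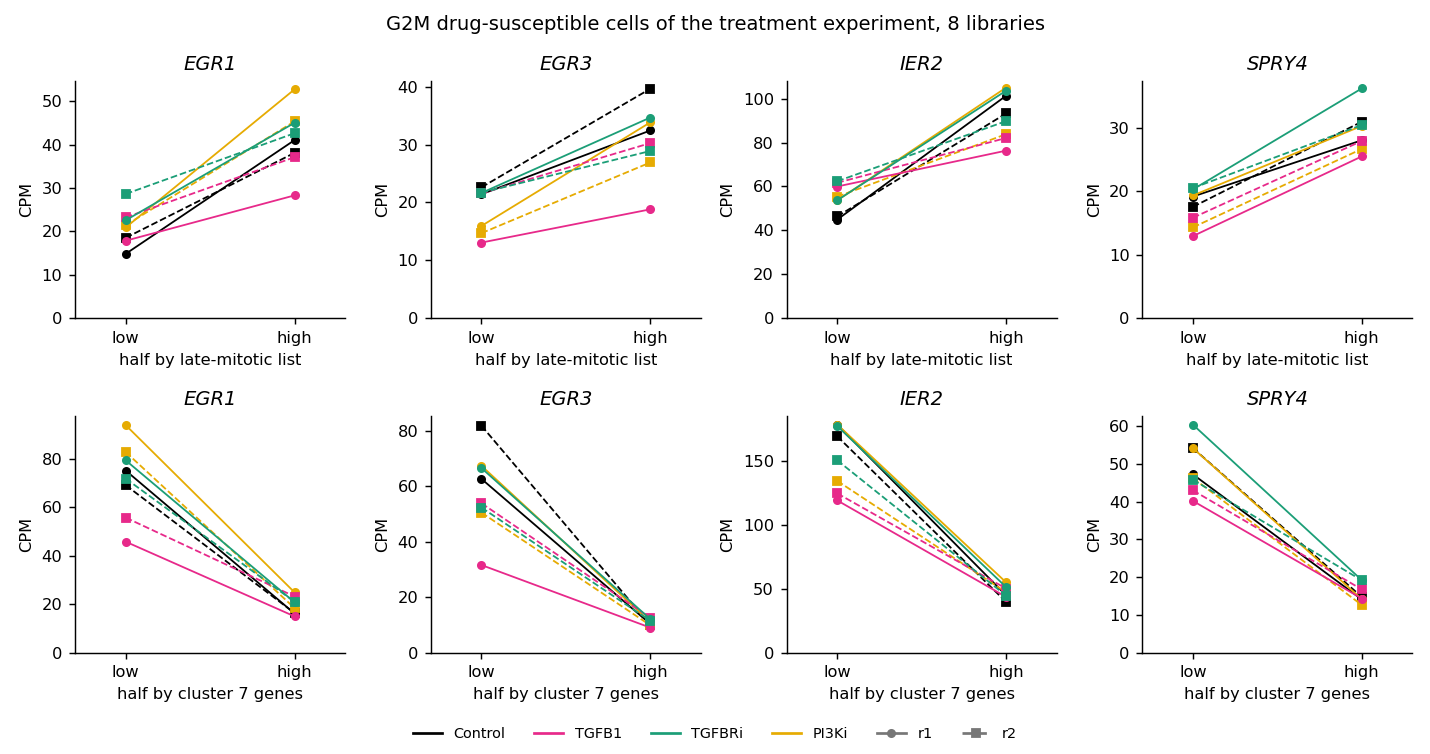
CPM of EGR1, EGR3, IER2 and SPRY4 in the 8 libraries of the treatment experiment (lines, colour for treatment, solid for r1 and dashed for r2). The upper row divides G2M drug-susceptible cells by the late-mitotic list, and the 4 genes rise from low to high in 8 of 8 libraries. The lower row divides the high cells again by the 10 cluster 7 genes, and the 4 genes fall in 8 of 8 libraries.

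The clusters drawn for the treatment experiment held a like pair, given side by side with no test. Its cluster 5 (3189 cells) and cluster 7 (2226 cells), with medians of 14995 and 22758 UMIs per cell, held 76.4% of the cells low and 74.3% of the cells high in cluster 7 genes in the second split. EGR1 was at 65.2 and 18.6 CPM in them, EGR3 at 65.5 and 12.8, PIF1 at 8.44 and 77.6, TOP2A at 95.9 and 500.5, CDC20 at 228 and 216 and CCNB1 at 394 and 422 CPM. CCNB1 was thus slightly higher in the cluster with more TOP2A here, unlike in the untreated experiment.

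WM983B, the other melanoma line, was untreated and had 1 library, so no test was made. In it, the first split showed the directions of the WM989 libraries for some of these genes and not for others. Between 147 cells high and 147 low in the late-mitotic list, IER2 was at 44.3 CPM in the high and 66.4 CPM in the low cells, IER3 at 258 and 294 CPM, and EGR1 at 21.2 (95% Poisson interval, counting error only, 18.65 to 24.02) and 17.4 CPM (15.1 to 19.9). EGR3 was at 9.92 (8.20 to 11.9) and 8.70 CPM (7.11 to 10.5), and SPRY4 at 14.5 (12.4 to 16.9) and 12.5 CPM (10.5 to 14.6), so that EGR1, EGR3 and SPRY4 were higher in the high cells, each with overlapping intervals, and IER2 and IER3 lower. For the second split, the 147 G2M drug-susceptible cells above the median of the late-mitotic list were split by the same 10 genes. EGR1 was at 37.7 CPM (32.7 to 43.4) in the 74 cells low in them and 7.76 CPM (5.76 to 10.2) in the 73 high, 4.86-fold higher in the low cells. EGR3 was at 18.5 CPM (15.0 to 22.5) and 2.95 CPM (1.77 to 4.61), and IER2 at 59.6 and 31.8 CPM. Median depth was again lower in the low cells, at 66850 against 87870 UMIs per cell.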

How the data were processed

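Members and gene lists were chosen with earlier results of these data known. Deposited UMI counts per gene and cell were made by the authors with Cell Ranger on hg38 (version and annotation not given in the sources used here), after filters in Seurat on genes per cell and percent of mitochondrial UMIs, in which cells with many genes were dropped as likely doublets. Clusters, states, phases and the cell cycle score behind them, and lineage barcode counts per cell, are the authors' metadata columns. ATAC-seq peaks were called by the authors in each library with MACS2 2.1.1.20160309 after Bowtie2 2.3.4.1, and the deposited peak value is a fold ratio over local background. The other ATAC-seq libraries were not used.

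For each cluster, in all and per well, counts of its cells were added up and scaled to 1000000 UMIs (CPM). Ratios between clusters were counted past 2-fold among genes at 20 CPM or more on either side, without a test. Ratios in single wells added 0.5 counts and needed 20 cells of each cluster. Total UMIs summed to 36894184 in cluster 6 and 50124630 in cluster 7, and intervals (95%) cover counting error only. The named genes were the 8 markers, the 10 with the largest ratio in each direction between clusters 6 and 7 that held in every well, the 10 highest over other drug-susceptible clusters, and up to 4 of each list, and in the treatment experiment the 5 at each end at 10 CPM or more. The treatment of each cell came from the metadata, and the labels do not say which GEO library is r1 or r2.

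In the treatment experiment, sums of counts per library and side of a split were tested with edgeR 4.0.16 (filterByExpr, TMM, quasi-likelihood, library as a block, Benjamini-Hochberg). Each library gave both sides, which is what the block pairs. SE is the log2 ratio divided by the square root of F. The test was tried on simulated data, in which counts were drawn gene by gene and no cells were split by expression. The trial could therefore not show how such a split affects the calls. Symbols were matched to RefSeq promoters of GRCh38.p14 for 4776 of 5905 genes.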

Additional observations from a re-analysis of the deposited data

Results flagged for a closer look

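Of 56 genes looked at over the 5 wells, 6 had a well set apart from the other 4 in the log2 CPM ratio of cluster 6 to cluster 7. FAM83D was at -2.354 in well 7 (-2.038 to -1.937 in the others), and AURKB at -0.5362 in well 2 (-1.115 to -0.9579 in the others). The other 4 genes were apart in well 3, FAM110A at -2.548 (-2.153 to -2.113), CCNF at -2.209 (-1.815 to -1.763), C21orf58 at -2.487 (-1.673 to -1.428) and KIF18A at -1.711 (-1.208 to -1.008). All 6 genes were higher in cluster 7 in each of the 5 wells. Of 34 ratios over the 8 treatment libraries, 1 was set apart, CCND1 in the second split, at 0.484 in TGFB1 r1 (-0.2874 to 0.03197 in the others). Chance sets apart about 1 group in 20.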

How the results depend on the processing

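No called value changed sign. Values that had not passed did, with SPRY1 in the first split at 0.02 with thinned cells, and in the second MGP at -0.03 in r2 alone and CCND1 at 0.03 in r1 alone. Genes past 2-fold between clusters 6 and 7 (27 and 29) numbered 8 and 15 at a minimum of 50 CPM, 74 and 52 at 5 CPM, and 41 and 29 in r1 alone, and the 26 genes higher in the other drug-susceptible clusters numbered 11 and 55 at those minimums. Leaving out 1 well at a time gave 24 to 32, 24 to 29, 104 to 114 (of 112) and 23 to 29 (of 26), and -4.75 to -0.681 percentage points for the barcode share.

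Each library gave both sides of a split, so they are paired. Without that block (no replicate block), 1313 genes were higher and 1011 lower in the first split, against 2762 and 2988, so that the larger side changed, and 1530 were higher in the second, against 2781. Thinned to 5000 UMIs, the first split gave 1328 and 1474 and the second 1369 and 1307. DESeq2 gave 1839 higher in the first. In r1 alone 1940 were lower in the first, and 1810 and 1802 were called in the second. Leaving out 1 library gave 2552 to 2674 and 2726 to 2873 in the first, and 2480 to 2831 and 2493 to 2753 in the second. The cause of these shifts was not tested. In the first split, the calls of CITED2 (0.35) and MGP (-0.32) were lost with DESeq2, thinning, r1 alone and no block, MGP also without Control r2 or TGFB1 r1, and IER3, CREBRF, KLF10 and CCND1 without the block. SPRY1 passed without Control r2 (-0.09) and with the middle of the cells left out of the split (-0.22). In the second, CCND1 passed without TGFB1 r1 (-0.08) and MGP without TGFBRi r1 (0.35), in r1 alone (0.51) and with no filter on low counts (0.25). The second split and the fits on r1 or r2 alone were chosen after seeing the data. No test compared gene levels between clusters 6 and 7 themselves, which come from 1 sample.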

Other observations

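MITF and JUNB were looked at after their values were seen. MITF, the master transcription factor of melanocytes, was at 585 CPM in cluster 6, 457 CPM in cluster 7 and 277 CPM in the other drug-susceptible clusters, while its targets PMEL (2249, 1927 and 2175 CPM) and MLANA were at like levels in the 3 sets of cells. In the treatment libraries, MITF was higher with the late-mitotic list (0.18 ± 0.02 on the log2 scale, SE, edgeR adjusted p = 3.79e-11) and, in the second split, higher in the cells low in cluster 7 genes (-0.51 ± 0.03, edgeR adjusted p = 2.1e-25). JUNB, an AP-1 subunit of the immediate early class, moved the same ways (0.69 ± 0.05 and -1.54 ± 0.05).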
